A study of Homo sapiens with 6 samples.

Results

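The G1 cyclins, their catalytic kinases and the RB proteins were followed in RNA-seq libraries of OVCAR8 cells, an established human ovarian carcinoma line labelled wild type. The genes were chosen by symbol: CCND1, CCND2, CCND3, CCNE1, CCNE2, CDK2, CDK4, CDK6, RB1 and RBL1, which are 10 of the 62700 genes in the count tables, and all 10 were matched. Per the labels, the cells were grown with fetal bovine serum, and the study's protocol starved them of serum overnight before treatment. The 3 control libraries came from cells given PBS, and the 3 leptin libraries came from cells given leptin, the adipocyte hormone, at 100 ng/ml for 24 h. The time after PBS is not given in the sources used here. The study set out to find transcripts that change with leptin and bear on stem-like properties of ovarian cancer cells.

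D-type cyclins bind the kinases CDK4 and CDK6, and E-type cyclins bind CDK2. These kinases phosphorylate RB1 and its relatives RBL1 and RBL2, the pocket proteins, which then release E2F transcription factors, and genes for DNA replication are transcribed. D-type cyclins are known to follow growth factor signals, while CCNE1, RBL1 and many replication genes are known E2F targets. Gain of CCNE1 is a known event in ovarian carcinoma.

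Totals lay between 15609425 and 18577775 counts per library. Leptin replicate 1 differed from its group: component 1 of a principal component analysis (49.6% of variance) placed it at -2.15, leptin replicates 2 and 3 at 46.3 and 39.6, and the controls between -31.0 and -23.6. Values are therefore given by library, and calls are also given without leptin replicate 1. Leptin replicates 2 and 3 also differed from each other more than controls did. Their chi-square per gene, a measure of difference beyond sampling noise, was 19.2, against 5.24 to 5.61 between controls. The median SD over genes, on a log2 scale, was 0.24 in leptin and 0.12 in control libraries. Of 12 markers of ovarian carcinoma cells 10 passed the filter on low counts, with the lineage factor gene PAX8 at a mean of 364 CPM (counts scaled to a common library total) in each group. Of these 10, 1 fell, KRT19, a keratin gene. WT1, EPCAM and CDH1 were low though tested, at means of 2.39, 3.98 and 0.247 CPM in controls. MUC16, which encodes the serum antigen CA125, and MSLN did not pass the filter, with at most 6 and 12 counts. Of 9 immune markers 0 passed the filter, their sum was at most 0.474 CPM, and PTPRC, CD3E, MS4A1 and ITGAM had 0 counts. Of 6 endothelial markers 1 was tested and did not pass, and their sum was 3.16 to 4.04 CPM in controls and 2 to 3 CPM with leptin. Of 9 fibroblast markers 7 were tested. POSTN fell, from 5.75 to 0.639 CPM. Of the 7, 6 had a negative fold change, and PDGFRB had a positive one of 1.19 (log2; edgeR adjusted p = 0.0684). The summed level of this list was 468 to 663 CPM in controls and 358 to 522 CPM with leptin. Most of it was the collagen gene COL1A1, at means of 562 and 421 CPM, which did not pass (edgeR adjusted p = 0.13). The part of this list in the results below was not tested. Whether replicates were separate cultures is not given in the sources used here, and the p-values reflect the spread of these libraries alone, which may be technical.

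Leptin-treated cells held less RBL1 and CDK2 transcript, by 33.2% and 31.1% on the fitted scale, and the other 7 tested genes of the set did not pass the test. Of the 10 genes 9 were tested. By edgeR's quasi-likelihood test with a threshold of 0.05 on the adjusted p, 2 of them fell and 0 rose, while over all 15685 tested genes 4.09% fell, 5.71% rose and 9.81% changed in either direction. For 5 of the 9 genes the leptin libraries did not overlap the controls, being below for RBL1, CDK2, CDK6 and RB1 and above for CDK4. Over all tested genes this held for 32.2%, with 16.2% below and 16.0% above. The median log2 fold change was -0.26 over the 9 genes and 0.01 over all tested genes. Among fits with 1 library left out, 0, 0 and 0 of the 9 passed without control replicates 1, 2 and 3, where 0.711%, 2.25% and 1.05% of all genes passed. Without leptin replicates 2 and 3 they were 2 and 0, beside 4.84% and 1.66% of all genes, and with the GC trend removed 1 passed, beside 5.53%. Bulk libraries cannot tell fewer cells in a phase of the cycle from less RNA of a gene per cell.

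**Figure D1:**
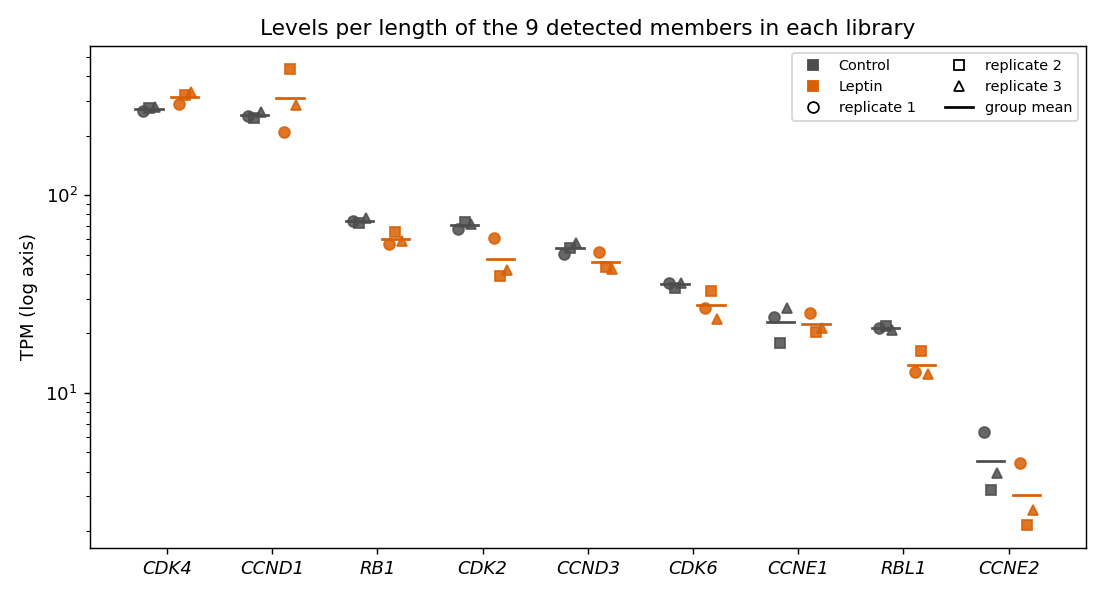
Level per length (TPM, log axis) of the 9 detected genes in each library, ordered by their control mean, with controls in grey, leptin in orange, a symbol for each replicate and a line at each group mean. RBL1, RB1, CDK2 and CDK6 stood lower in all 3 leptin libraries, CCND1 spread from 210 to 437 TPM with leptin, and CCNE1 overlapped between groups.

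Compared per length, in TPM (counts divided by exonic length and scaled to a common sum), the kinase gene CDK4 and the cyclin gene CCND1 were far above the rest in control cells, at means of 274 and 254 TPM. RB1 followed at 74.4 TPM and CDK2 at 70.9 TPM, and the ranges of this pair overlapped. CCND3 stood at 54.2 TPM, CDK6 at 35.4 TPM, CCNE1 at 22.9 TPM and RBL1 at 21.3 TPM, and here the ranges of CCNE1 and RBL1 overlapped. CCNE2 was the lowest gene detected, at 4.50 TPM. CCND2 (ENSG00000118971.9, chr12:4269771-4305353, plus strand), a D-type cyclin gene, was not counted once in the 6 libraries. In any given library a level below 3 counts, or 0.158 to 0.200 CPM depending on the library, could be missed by counting error alone. With leptin the order of the means was the same, but the ranges of CDK4 and CCND1, of RB1 and CDK2, of CDK2 and CCND3 and of CDK6 and CCNE1 overlapped. The exonic length takes in every annotated exon of a gene. Exons that these cells do not use would make its level per length too low, and which are used was not tested. The order of levels and the shares within families carry this limit. Read pairs over exons of 2 genes were not counted, so levels per length are also too low for genes that share exons. TSPAN31 covers 44.2% of the exonic bases of CDK4, and INTS8 and a noncoding gene cover 37.1% of those of CCNE2. With the shared bases left out of the length, an alternative chosen after seeing the data, CDK4 reached 492 TPM in controls and CDK2 (85.3 TPM) passed above RB1 (74.4 TPM).

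CCND1 (ENSG00000110092.4, chr11:69641156-69654474, plus strand, hg38), the most abundant D-type cyclin of these cells, differed between the leptin libraries. Its level was 295, 287 and 304 CPM in control replicates 1, 2 and 3 and 248, 513 and 355 CPM in leptin replicates 1, 2 and 3. Leptin replicate 1 lay below every control, and leptin replicates 2 and 3 lay above every control. The log2 fold change was 0.33 ± 0.21 (SE, n = 3 each), with a 95% interval of -0.13 to 0.79, and missed the threshold (edgeR adjusted p = 0.333). Without leptin replicate 1 it was 0.55 (edgeR adjusted p = 0.0034), and without leptin replicate 2 it was 0.03 (edgeR adjusted p = 0.932). LTO1, on the opposite strand, covers 10.4% of the exonic bases of CCND1.

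CCND3 (ENSG00000112576.13, chr6:41934934-42050357, minus strand), the other D-type cyclin detected, stood at 71.6, 77.0 and 80.4 CPM in controls and at 73.7, 62.1 and 64.1 CPM with leptin. Leptin replicates 2 and 3 were below every control and leptin replicate 1 was within their range. Its log2 fold change was -0.20 ± 0.11 (SE; edgeR adjusted p = 0.28), with a 95% interval of -0.44 to 0.05. It passed without leptin replicate 1, at -0.28 (edgeR adjusted p = 0.0425). CCND1 made up 82.4% ± 0.780 of the D-type cyclin level per length in controls (SD, n = 3) and 86.1% ± 5.37 with leptin. By library the leptin shares were 80.3%, 90.9% and 87.0%, so the groups overlapped, with leptin replicate 1 below and leptin replicates 2 and 3 above every control. The ratio of CCND1 to CCND3 per length lay between 4.51 and 4.99 in controls and was 4.08, 10.0 and 6.71 in leptin replicates 1, 2 and 3.

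CCNE1 (ENSG00000105173.14, chr19:29811991-29824312, plus strand), the more abundant E-type cyclin, was at 14.6, 10.7 and 16.0 CPM in controls and 15.6, 12.4 and 13.8 CPM with leptin. The groups overlapped, and the log2 fold change was 0.02 ± 0.17 (SE; edgeR adjusted p = 0.965). Its 95% interval of -0.37 to 0.40 holds neither a doubling nor a halving of the transcript. Its sign turned in some alternatives, at -0.02 with the GC trend removed and at -0.13 without control replicate 2. CCNE2 (ENSG00000175305.18), the other E-type cyclin, was at 6.85, 3.48 and 4.20 CPM in controls and 4.84, 2.34 and 2.97 CPM with leptin. These values rest on 35 to 130 counts per library, and leptin replicate 1 lay among the controls while the other leptin libraries were below them. Its log2 fold change was -0.52 ± 0.33 (SE; edgeR adjusted p = 0.343), and the interval ran from -1.24 to 0.21. It was -0.88 without leptin replicate 1 (edgeR adjusted p = 0.0432), and without control replicate 1 it was -0.18 (edgeR adjusted p = 0.831). CCNE1 made up 79.1% to 87.2% of the E-type level per length in controls and 85.2% to 90.4% with leptin.

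CDK2 (ENSG00000123374.11, chr12:55966781-55972789, plus strand), the kinase partner of the E-type cyclins, fell. Its level was 64.8, 69.6 and 67.8 CPM in controls and 58.6, 37.6 and 42.9 CPM in leptin replicates 1, 2 and 3. All 3 leptin libraries were below all controls, with leptin replicate 1 close to them. The log2 fold change was -0.54 ± 0.15 (SE, n = 3 each; edgeR adjusted p = 0.0469). Its call was lost in 5 of 6 fits with 1 library left out, where the edgeR adjusted p was between 0.107 and 0.173. Without leptin replicate 1 the change was -0.75 (edgeR adjusted p = 7.46e-05). It was also lost with upper-quartile scaling, at the same value of -0.54 (edgeR adjusted p = 0.0546). PMEL and a noncoding gene cover 16.8% of the exonic bases of CDK2.

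**Figure D2:**
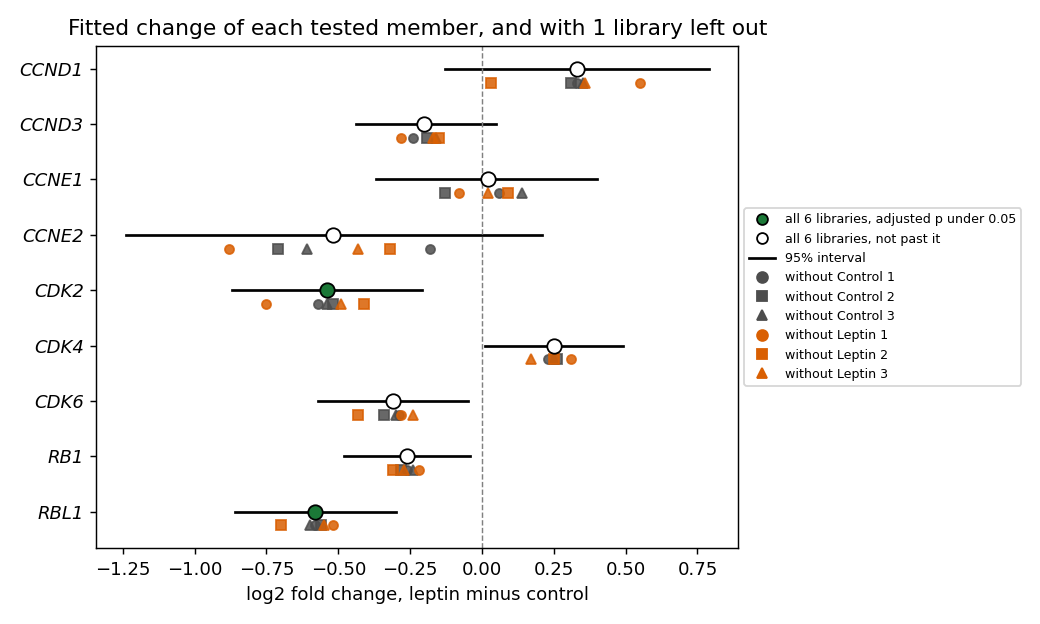
Log2 fold change (leptin minus control) of the 9 tested genes with 95% intervals, filled where the adjusted p is under 0.05, and below each the value with 1 library left out, coloured by the group it came from and with a symbol for its replicate. RBL1 and CDK2 are filled, and CCND1 runs from 0.03 to 0.55 over the leave-outs.

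CDK4 and CDK6, alternative partners of the D-type cyclins, had fold changes of opposite sign, and neither passed. CDK4 (ENSG00000135446.17, chr12:57747727-57756013, minus strand) was at 202, 211 and 209 CPM in controls and 222, 246 and 270 CPM with leptin, every leptin library above every control. Its log2 fold change of 0.25 ± 0.11 (SE) had an edgeR adjusted p of 0.172, and without leptin replicate 1 it was 0.31 (edgeR adjusted p = 0.0187). CDK6 (ENSG00000105810.10, chr7:92604921-92836573, minus strand) was at 109, 102 and 107 CPM in controls and 81.3, 99.2 and 76.1 CPM with leptin. Leptin replicate 2 lay just below the lowest control and the other leptin libraries well below it. Its log2 fold change was -0.31 ± 0.12 (SE; edgeR adjusted p = 0.122), and without leptin replicate 2 it was -0.43 (edgeR adjusted p = 0.041). With the GC trend removed CDK6 was at -0.18 (edgeR adjusted p = 0.361) and CDK4 at 0.20 (edgeR adjusted p = 0.279). CDK4 made up 88.0%, 89.1% and 88.5% of the level per length of this pair in controls and 91.5%, 90.8% and 93.3% with leptin, and the groups did not overlap. Of the members, CDK4 is also the one with the largest share of exonic bases left uncounted. With shared bases left out of the length its share was 93.2% ± 0.340 in controls and 95.3% ± 0.797 with leptin (SD, n = 3 each). This step scales a gene alike in every library, so it could not change whether the groups overlap.

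The CDK4 promoter is shown because it carries a cluster of E-boxes, the letters CACGTG, which MYC and related factors are known to bind. Sequences are RefSeq promoter windows (GRCh38.p14, the assembly of hg38), of 250 bases before and 50 after an annotated start, which were found for 6 of the 10 genes. The window of CDK4 (chromosome 12, minus strand) held 3 copies of CACGTG, and 7.26% of all 35114 windows held at least 1. Below are chr12:57752491-57752550, outside the exons of the count tables, and chr12:57752394-57752423, on the gene's strand with CACGTG in capitals.
CDK4 distal: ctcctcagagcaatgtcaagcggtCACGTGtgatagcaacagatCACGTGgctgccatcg
CDK4 proximal: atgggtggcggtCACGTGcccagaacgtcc
Counted from the start, the copies begin at -216, -196 and -101, and the last lies in an exon of CDK4 in the count tables. CDK6 held 1 copy, after its start. A match of letters is a description and no evidence of binding.

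RBL1 (ENSG00000080839.12, chr20:36996349-37095997, minus strand), which encodes the pocket protein p107 and is itself a known E2F target, fell, with the smallest p of the set. Its level was 31.1, 31.7 and 30.2 CPM in controls and 18.7, 23.9 and 19.6 CPM in leptin replicates 1, 2 and 3. The controls lay close together and every leptin library was below them, leptin replicate 1 included. The log2 fold change was -0.58 ± 0.13 (SE, n = 3 each; edgeR adjusted p = 0.0211), a fall of 33.2%. It was between -0.70 and -0.52 in the 6 leave-outs and passed in 2 of them, without leptin replicate 1 (edgeR adjusted p = 0.00487) and without leptin replicate 2 (edgeR adjusted p = 0.0163). In the other 4 the edgeR adjusted p was between 0.0828 and 0.115. After removal of the GC trend the change was -0.45 (edgeR adjusted p = 0.0563). RBL1, with 40.0% GC in its longest transcript, is in the lowest of 5 equal classes of tested genes by GC, as are RB1, CDK6 and CCNE2. In that class the median log2 fold change was -0.13, and 223 of 3050 genes fell while 23 rose.

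The end of the RBL1 promoter is shown because it held the E2F letters, which no other window of the set held. The letters searched on both strands were TTTCCCGC, TTTCGCGC, TTTGCCGC and TTTGGCGC, and 3.31% of all windows held at least 1. The 120 bases before the start of RBL1 (chr20:37095998-37096117, minus strand, GRCh38.p14) are given on the gene's strand, with the matches in capitals.
RBL1: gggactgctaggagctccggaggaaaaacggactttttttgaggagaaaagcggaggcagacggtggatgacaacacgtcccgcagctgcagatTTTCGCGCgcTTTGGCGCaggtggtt
The matches begin at -26 and -16 from the start. A noncoding antisense gene with at most 6 counts per library covers these bases. CCNE1, CCND3, CDK4, CDK6 and a downstream start of RB1 had windows without these letters. CCND1, CCND2, CCNE2 and CDK2 had no window.

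RB1 (ENSG00000139687.16, chr13:48303744-48599436, plus strand), which encodes the retinoblastoma protein, was at 117, 114 and 120 CPM in controls and 90.7, 104 and 98.6 CPM with leptin. All leptin libraries were below all controls, and leptin replicate 1 was the lowest. The log2 fold change was -0.26 ± 0.10 (SE; edgeR adjusted p = 0.125), and its 95% interval was -0.48 to -0.04. It did not pass in any of the 6 leave-outs, and with the GC trend removed it was -0.12 (edgeR adjusted p = 0.496). RBL2, which encodes the pocket protein p130 and was not in the set, was at 58.9 ± 5.08 CPM in control and 53.2 ± 4.94 CPM in leptin libraries (SD, n = 3 each), with overlapping groups (edgeR adjusted p = 0.458). Summed per length, the 3 pocket protein genes stood at 125 ± 0.150 TPM in controls and 100 ± 6.58 TPM with leptin (SD, n = 3 each). RBL1 made up 16.9%, 17.3% and 16.7% of that sum in controls and 12.8%, 15.2% and 13.3% with leptin, without overlap. The share of RB1 was 59.3% ± 2.13 and 60.1% ± 2.30, and its groups overlapped.

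**Figure D3:**
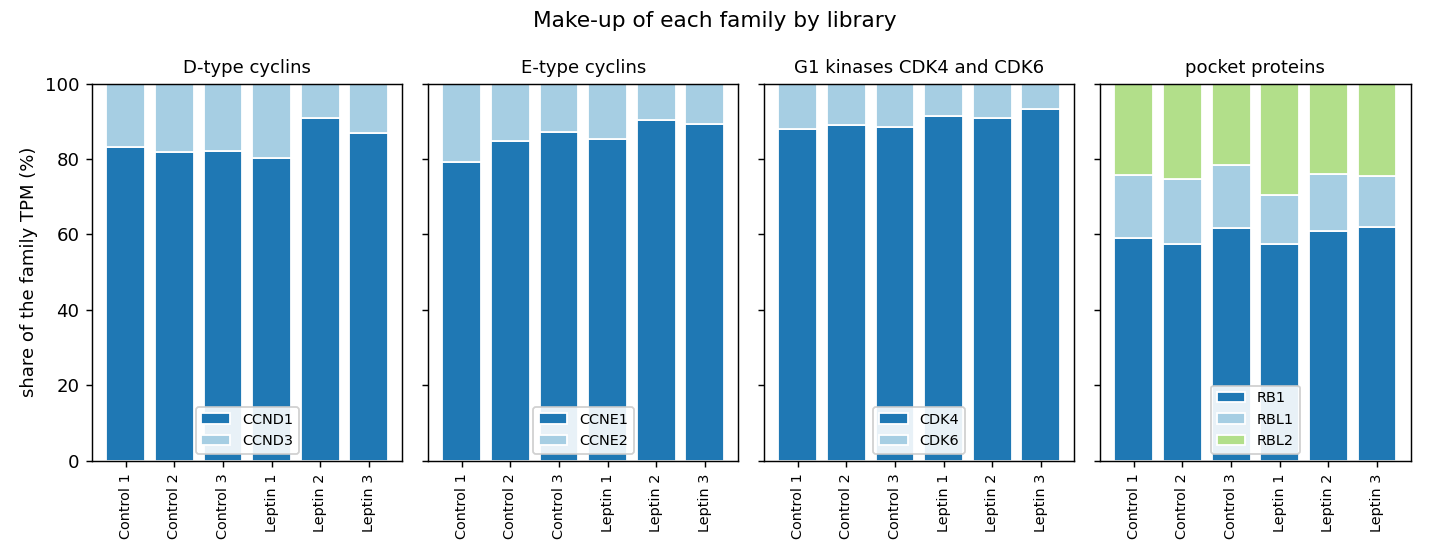
Share of each gene in the summed TPM of its family, as stacked bars from 0 to 100% for each library; CCND2, at 0 counts, is not drawn. CDK4 is above 90% of the CDK4 and CDK6 sum in all leptin libraries and below 90% in all controls, and CCND1 reaches 90.9% of the D-type sum in leptin replicate 2.

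The leptin libraries did not rank alike for all genes. The values here are log2 differences from the control mean, with 2 CPM added to each level. Leptin replicate 1 was at -0.67 for RBL1, -0.37 for CDK6 and -0.36 for RB1. For these genes leptin replicate 2 was higher, at -0.35, -0.09 and -0.17. For CDK2 the order was the other way, with -0.19 in leptin replicate 1 and -0.81 and -0.63 in leptin replicates 2 and 3. CCND1 went from -0.25 in leptin replicate 1 to 0.79 and 0.27 in leptin replicates 2 and 3. CDK4 stood at 0.10, 0.25 and 0.38. Without leptin replicate 1, CCND1, CCND3, CCNE2, CDK2, CDK4 and RBL1 passed, 6 of 9 genes, and over all genes 29.6% passed in that fit.

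For each of CCND1 and RBL1, the 3 most similar profiles were sought among 9433 protein-coding genes with a mean of at least 10 CPM. The measure was the root mean square difference of centred log2 CPM over the 6 libraries. The nearest of so many genes lie far below the median by selection, so closeness is no evidence of a link. For CCND1 these were MICALL1 and ST3GAL1 at 0.065 and IARS1 at 0.067, where the median gene was at 0.354. IARS1, a cytosolic isoleucyl-tRNA synthetase gene, was at 225, 454 and 349 CPM in leptin replicates 1, 2 and 3 and 256 to 264 CPM in controls. For RBL1 they were LTBP1 at 0.056, ZNF107 at 0.070 and DERA at 0.071, against a median of 0.344. LTBP1, which encodes a latent TGF-beta binding protein, was at 80.2 to 92.1 CPM in controls and 54.4, 64.3 and 55.3 CPM with leptin.

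CDK inhibitors restrain the G1 kinases, and of 6 tested 2 rose and 0 fell (median log2 fold change 0.10), CDKN1C (p57) and CDKN1A (p21). Over all tested genes 5.71% rose and 4.09% fell. CDKN1A was at 33.4, 35.3 and 30.4 CPM in controls and 44, 104 and 107 CPM in leptin replicates 1, 2 and 3. As with CDK2, leptin replicate 1 lay nearest to the controls. Its log2 fold change was 1.36 ± 0.30 (SE; edgeR adjusted p = 0.0276), which passed in 1 of 6 leave-outs (edgeR adjusted p = 0.11 without leptin replicate 2) and did not pass with the GC trend removed (edgeR adjusted p = 0.0584). CDKN1C was at 10.3, 11.6 and 10.2 CPM in controls and 16.5, 23.3 and 27.0 CPM with leptin (log2 fold change 1.06 ± 0.18 SE; edgeR adjusted p = 0.00845). It passed in 4 of 6 leave-outs, not without control replicate 1 (edgeR adjusted p = 0.0696), and was 0.68 with the GC trend removed (edgeR adjusted p = 0.0235). Per length, CDKN1A was at 0.583 to 0.669 times the level of CDK2 in controls and at 0.973, 3.59 and 3.25 times in leptin replicates 1, 2 and 3. CDKN1B (p27) was at 24.0 and 26.7 CPM (edgeR adjusted p = 0.476). CDKN2A (p16) and CDKN2B (p15), inhibitors of CDK4 and CDK6, were not counted in any library, as for CCND2.

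Of 10 tested E2F and DP factors 2 fell and 0 rose, with a median log2 fold change of -0.23. Over all tested genes 4.09% fell. E2F8, a repressor of the family, fell from 10.9 to 6.51 CPM (edgeR adjusted p = 0.02), and TFDP1, which encodes the dimer partner of E2F factors, from 190 to 138 CPM (edgeR adjusted p = 0.0433). E2F1, an activator, was at 158, 161 and 156 CPM in controls and 131, 137 and 133 CPM with leptin, without overlap, and did not pass (log2 fold change -0.24; edgeR adjusted p = 0.131). With the GC trend removed E2F1 was at -0.55 and passed (edgeR adjusted p = 0.0125), while the call of TFDP1 was lost (edgeR adjusted p = 0.0829). Of 9 genes of DREAM and MuvB, the complexes through which pocket proteins and MYB factors act on cell cycle genes, 2 fell and 0 rose (median -0.38). These were FOXM1, from 109 to 81.3 CPM (edgeR adjusted p = 0.0454), and MYBL2, from 427 to 325 CPM (edgeR adjusted p = 0.0498). The log2 fold change of MYBL2 was -0.39, and -0.63 with the GC trend removed (edgeR adjusted p = 0.0141). The calls of E2F8, TFDP1, FOXM1 and MYBL2 were each lost in 4 or 5 of the 6 leave-outs.

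Downstream of RB, 21 of 30 genes of DNA replication known as E2F targets fell and 0 rose, where 4.09% of all tested genes fell. The median log2 fold change of the 30 was -0.64, against 0.01 over all tested genes. All 30 had every leptin library below every control, which held for 16.2% of all tested genes. CLSPN, a checkpoint adaptor gene, was at 41.8, 43.2 and 50.5 CPM in controls and 24.3, 23.0 and 19.6 CPM with leptin (log2 fold change -1.02 ± 0.13 SE; edgeR adjusted p = 0.00298). It passed in all 6 leave-outs, as did RRM2 (log2 fold change -1.09) and MCM4 (-0.87). Of 24 G2 and M phase genes 19 fell and 0 rose (median -0.69). KIF23, a motor gene of cytokinesis, was at 79.2 ± 1.08 CPM in control and 47.3 ± 3.40 CPM in leptin libraries (SD, n = 3 each; edgeR adjusted p = 0.00401), and DLGAP5 and KIF11 also passed in all 6 leave-outs. Leaving out 1 library brought the falls in these lists to between 7 and 26 and between 3 and 24 genes, the fewest without control replicate 1 or 3. Leptin replicate 1 shared these shifts at a smaller size, with medians of -0.43 and -0.41 from the control mean, against -0.72 and -0.85 in leptin replicate 2. These medians are log2 differences with 2 CPM added to each level. E2F letters were in 40.5% of the 37 promoter windows of the replication list and in 3.31% of all windows. The list was made of known E2F targets, so this share is no separate evidence on their fall.

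**Figure D4:**
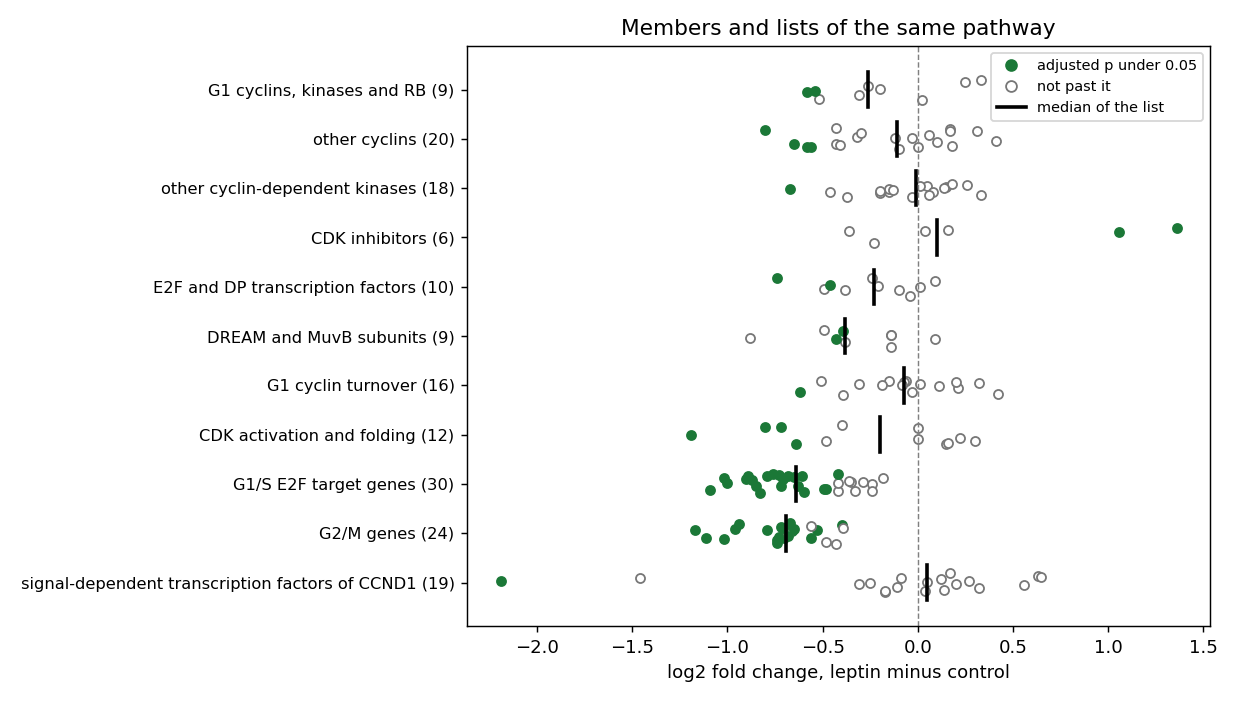
Log2 fold change (leptin minus control) of each tested gene in the set and in 10 lists of the same pathway, with the number tested in brackets, filled points at an adjusted p under 0.05 and a bar at each median. The replication and the G2 and M phase lists lie wholly below 0, while the G1 set spreads from -0.58 to 0.33.

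Among cyclins outside the G1 set, 4 of 20 fell and 0 rose (median -0.11), where 4.09% of all tested genes fell. The S and M phase cyclins CCNA2 (log2 fold change -0.65) and CCNB1 (-0.56) were among the 4, as was CCNA1, from 16.1 to 9.20 CPM (edgeR adjusted p = 0.0267). The last was CCNL1, from 51.7 to 34.5 CPM (edgeR adjusted p = 0.0395), named after its values were seen. Of these, CCNA2 passed in 4 of 6 leave-outs, CCNB1 in 2, and CCNA1 and CCNL1 in 1 each. CCNA2 is also counted in the replication list and CCNB1 in the G2 and M phase list, so these are not separate findings. With the GC trend removed CCNL1 did not pass (edgeR adjusted p = 0.127). Of 18 other cyclin-dependent kinases 1 fell and 0 rose (median -0.01), which is near the share over all genes. The gene that fell was CDK1, the mitotic kinase, at 102, 97.2 and 105 CPM in controls and 69.2, 53.4 and 69.1 CPM with leptin (edgeR adjusted p = 0.0104). CDK1 is also counted in the G2 and M phase list. Its call was lost without control replicate 1 and without control replicate 3 (edgeR adjusted p = 0.078 without the latter).

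Of 16 genes of G1 cyclin turnover 1 fell and 0 rose, which is near the share over all tested genes, where 4.09% fell. The gene that fell was SKP2, the ubiquitin ligase subunit that targets p27, from 41.5 ± 4.41 to 27.0 ± 5.42 CPM (SD, n = 3 each; edgeR adjusted p = 0.0299). SKP2 passed in 1 of 6 leave-outs, and with the GC trend removed it did not pass (edgeR adjusted p = 0.0824), which left 0 calls in this list. Of 12 genes of CDK activation and folding 4 fell and 0 rose: HSP90AB1 and HSP90AA1, chaperones that fold CDK4, the inhibitory kinase gene WEE1, from 76.9 to 46.5 CPM (edgeR adjusted p = 0.0198), and the CDK-activating phosphatase gene CDC25A, from 33.0 to 21.1 CPM (edgeR adjusted p = 0.038), named after its values were seen. HSP90AB1 (log2 fold change -0.80) passed in 5 of 6 leave-outs, HSP90AA1 (-1.19) in 4, WEE1 in 2 and CDC25A in 1. With the GC trend removed WEE1 did not pass (edgeR adjusted p = 0.0552). Of 19 signal-dependent factors known at the CCND1 promoter, 1 fell and 0 rose (median 0.05), again near the share over all genes. The gene that fell was FOS, an AP-1 subunit gene, at 2.85, 4.10 and 2.22 CPM in controls and 1.10, 0.334 and 0.534 CPM with leptin (edgeR adjusted p = 0.0151). It rests on 5 to 66 counts per library and passed in 2 of 6 leave-outs (edgeR adjusted p = 0.0839 without control replicate 2).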

How the data were processed

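Expression was measured by RNA-seq in 6 OVCAR8 libraries, 3 control and 3 leptin. The deposited values are raw counts of read pairs per GENCODE 44 gene, made with featureCounts 2.0.1 at exon level, per the file headers. No option for strand, for multi-mapped pairs or for pairs on overlapping genes was set, although the library kit named in the labels keeps strand. Per the submitters' processing notes, hg38, HISAT2 2.0.5, featureCounts 1.5.0-p3 and DESeq2 were used. Symbols were found for all 62700 gene IDs, and 0 other columns of per-sample values were present.

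The comparison of leptin with control used edgeR 4.0.16 under R 4.3.3: filterByExpr (minimum count 10, total 15), TMM scaling, robust quasi-likelihood fits and Benjamini-Hochberg adjustment over 15685 genes, with a threshold of 0.05. CPM uses TMM-scaled totals, TPM uses exonic lengths in the files, and GC content is that of a gene's longest reference transcript. Each standard error was derived from a fold change and its F statistic. Alternatives were DESeq2 1.42.0, limma-voom (limma 3.58.1), other scalings, no filter, a replicate block, GC trend removal (lowess, span 0.3) and leaving out each library. The fit was tested on simulated counts drawn with the same dispersion for every gene and both groups. The larger spread of the leptin libraries was not simulated. Same-group libraries differed beyond sampling noise (chi-square per gene 5.24 to 5.61 between controls and 19.2 to 45.4 between leptin libraries). Figures used Python 3.11.15 and matplotlib 3.10.9.

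The members and lists were chosen with earlier results of these data known. Besides the 10 members, RBL2, CDKN1A, CDKN1B, E2F1, SKP2 and CCNA2 were named always, and in each list up to 3 called genes, those of smallest adjusted p.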

Additional observations from a re-analysis of the deposited data

How the results depend on the processing

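Over 126 pairs of a tested G1 gene and an alternative, 105 kept their direction and their side of the threshold, 12 lost a call, 5 gained 1 and 4 turned direction. The turns were all of CCNE1, at -0.02 with the GC trend removed and 0 when a replicate block was added to that, with a range of -0.13 to 0.14 over the leave-outs. The number of G1 genes called, 2, was 1 with upper-quartile scaling, 1 with the GC trend removed and 1 with the GC trend removed and a replicate block, and 0 to 6 when 1 library was left out. All genes called went from 1538 to 2437 (1478 higher) with no filter on low counts, to 868 (426 higher) with the GC trend removed and to 942 (465 higher) with the replicate block as well. In the leave-outs they ranged from 115 to 4761, with 55 to 2583 higher and 60 to 2178 lower. These fits have 1 library fewer, and why the counts differ so much was not tested. The median gene moved by 0.043 (log2) with the GC trend removed and by -0.012 with upper-quartile scaling. The gain of CDK4 in the CDK4 and CDK6 sum, 3.33 percentage points per length, was 7.99 points by raw counts. Lengths are the same in every library, so this choice sets the size of the gain and could not change its direction. No pairing by replicate number was seen in the counts: deviations from the group means of same-numbered libraries correlated across genes at -0.049, 0.015 and -0.11. These correlations cannot show whether same-numbered libraries were handled together. With the replicate block 1303 genes passed, CDK2 (edgeR adjusted p = 0.0434) and RBL1 (edgeR adjusted p = 0.0273) among them. FOXM1 (edgeR adjusted p = 0.0688) and MYBL2 (edgeR adjusted p = 0.0953) did not pass with this block, which left 0 calls in the DREAM and MuvB list, and the turnover list had 2 calls in place of 1. CCNE2, with 35 to 130 counts per library, is the detected member that depth limits most.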
